A study of Mus musculus with 8 samples.

Results

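Oligo1 is a cluster of mature oligodendrocytes found in mice that lack microglia, and its cells came from 2 tissues, the hippocampus and the cortex. The comparison described here is between the Oligo1 cells of these tissues. Members are the cells of *Fire* Δ/Δ mice (labelled FIREdelta/delta KO) that the deposited annotation puts in cluster 1 of the oligodendrocyte clustering, and they number 1552 of the 12581 cells of the series. The hippocampus gave 859 cells in mouse 3 and 448 in mouse 6, and the cortex gave 147 and 98. Thus 84.2% of Oligo1 cells were hippocampal, against 66.3% of the 5144 *Fire* Δ/Δ cells in the clusters Oligo2 to Oligo4. The *Fire* Δ/Δ allele is a germline deletion of the *Fms* intronic regulatory element, an enhancer within *Csf1r*, the gene of a growth factor receptor on which microglia depend. The control group held 5885 oligodendrocytes of 2 wild-type mice (*Fire* +/+, mice 1 and 4), which carry no deletion. Mice 1 and 3 were aged 1 month and 18 days and mice 4 and 6 were aged 1 month and 16 days, all were female, and each gave 1 hippocampus library and 1 cortex library. Hippocampi of both hemispheres were used, whereas the tissue labelled cortex was, in the methods of the study, what remained of the left hemisphere without the hippocampus, so it also held structures below the cortex. In the deposited annotation the libraries of a tissue had another batch number than those of the other tissue of the same mice. Tissue and batch thus cannot be told apart within a mouse. The cortex libraries of mice 4 and 6 formed the batch that the study called poorer in quality.

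Oligodendrocytes wrap axons in myelin, a membrane rich in cholesterol and in a few proteins such as *Mbp* and *Mog*. When the brain is inflamed, ages or loses myelin, some of them take up a state marked by *C4b*, a complement component that is cleaved during opsonization, and *Serpina3n*, a secreted inhibitor of serine proteases. Astrocytes in reactive states make both as well. *C4b* lies at chr17:34728380-34743882 on the minus strand of GRCm38, and *Serpina3n* at chr12:104406729-104414329 on the plus strand.

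The promoters of a marker and of 2 genes that passed the test of tissue described below, *Anxa2* and *Hmgcs1*, are shown as examples from the marker, annexin and cholesterol groups. They come from RefSeq on GRCm38.p6 and run from 250 bases before to 50 bases after the annotated start, each on the plus strand. The *Serpina3n* window is chr12:104406458-104406757, the *Anxa2* window chr9:69453433-69453732 and the *Hmgcs1* window chr13:119690101-119690400. Capitals mark matches to TGANTCA, the AP-1 motif that *Fos* proteins bind with Jun partners, or to TCACNCCAC, a sterol response element.
Serpina3n: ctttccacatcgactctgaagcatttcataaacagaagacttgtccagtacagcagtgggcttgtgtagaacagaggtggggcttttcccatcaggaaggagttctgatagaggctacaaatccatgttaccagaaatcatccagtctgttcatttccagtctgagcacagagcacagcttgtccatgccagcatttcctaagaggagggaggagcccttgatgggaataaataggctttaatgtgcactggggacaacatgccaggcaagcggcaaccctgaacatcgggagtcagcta
Anxa2: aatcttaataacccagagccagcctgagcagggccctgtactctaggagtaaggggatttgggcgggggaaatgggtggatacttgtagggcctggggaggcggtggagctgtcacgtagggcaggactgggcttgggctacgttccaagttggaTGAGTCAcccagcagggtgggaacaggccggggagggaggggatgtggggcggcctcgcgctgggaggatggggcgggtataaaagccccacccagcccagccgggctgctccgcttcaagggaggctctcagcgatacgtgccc
Hmgcs1: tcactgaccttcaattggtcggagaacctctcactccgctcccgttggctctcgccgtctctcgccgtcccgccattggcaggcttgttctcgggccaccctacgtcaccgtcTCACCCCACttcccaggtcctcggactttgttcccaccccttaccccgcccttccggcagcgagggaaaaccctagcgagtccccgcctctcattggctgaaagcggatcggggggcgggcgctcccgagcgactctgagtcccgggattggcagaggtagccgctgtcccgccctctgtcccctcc
Both strands were searched, also for the STAT motif TTCNNNGAA and the C/EBP motif TTGCNNAAT, and the motifs were picked after expression values had been seen. The *Anxa2* window held 1 AP-1 match, at bases 156 to 162, and the *Hmgcs1* window 1 sterol match, at bases 114 to 122, whereas the *Serpina3n* window held none of the 4 motifs. Among 32851 RefSeq promoters of the same length, 7.81% held the AP-1 motif, 1.24% the sterol motif, 8.30% the STAT motif and 2.40% the C/EBP motif. Of 16 promoters of cholesterol synthesis genes, 1 held the sterol motif, that of *Hmgcs1*. Of 18 promoters of genes that the study names for Oligo1, 3 held the AP-1 motif, *Anxa2* among them. A match is a run of letters and not a site shown to be bound.

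*Mog*, *Mag* and *Mbp* each had a UMI (unique molecular identifier, 1 per captured RNA molecule) in 100% of Oligo1 cells of every library. *Csf1r* had a UMI in 1 Oligo1 cell, in the hippocampus of mouse 3, against 5.31% to 10.2% of cells in the *Fire* +/+ libraries, and the microglial genes *Tmem119* and *Trem2* had none in any Oligo1 cell. Of the 4 Oligo1 groups, the cortex cells were sequenced more deeply, with median UMI counts of 14205 and 13730 in mice 3 and 6, against 9959 and 11135.5 in hippocampus. At a common depth of 5000 UMIs a cell, to which each cell was thinned, the median number of genes detected was 2111 and 2153 in hippocampus and 2080 and 2101 in cortex. The means of the 4 libraries had correlations across genes between 0.985 and 0.995. No barcode occurred in 2 Oligo1 libraries, and 4 Oligo1 cells carried a barcode that also occurred in another library of the series, where 21 barcodes did.

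Oligo1 cells were more frequent among hippocampal than among cortical oligodendrocytes in both *Fire* Δ/Δ mice. The share was higher by 17.2 percentage points in mouse 3 and by 12.3 in mouse 6, with a mean of 14.7 ± 3.43 (SD, n = 2 mice). A two-sided exact permutation test within mice gave p = 0.5, which is the smallest that 2 pairs allow. Counting in their place every *Fire* Δ/Δ cell in which *C4b* and *Serpina3n* were both detected, whatever its cluster, gave 37.6% and 32.9% of hippocampal and 19.1% and 23.2% of cortical cells, a mean difference of 14.1 ± 6.29 points (SD, n = 2 mice). The cortex cells were the deeper ones, as given above. Numbers of cells in a dissociated, sorted sample need not be those of the tissue. In stained sections, the study saw OLIG2-positive cells with SERPINA3N protein almost only in white matter of *Fire* Δ/Δ mice, counted in corpus callosum and fimbria. In grey matter, counted in interbrain and hippocampus, it could detect none. The methods do not say whether the dissected hippocampus included fimbria, and the part of white matter in the share was not tested.

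*C4b* was at the same level in Oligo1 cells of both tissues within the spread of the mice, and *Serpina3n* was somewhat higher in hippocampus. A *C4b* UMI was found in 98.8% and 98.7% of hippocampal Oligo1 cells and in 98.6% (95% Clopper-Pearson interval 95.2% to 99.8%) and 99.0% (94.4% to 99.97%) of cortical ones, where Oligo2 to Oligo4 cells of these libraries had shares of 28.6% to 46.4% and *Fire* +/+ cells of 4.34% to 11.8%. The clusters were made from expression values of these cells, so the contrast with other cells is no test. The marker levels in each tissue are likewise those of cells picked in this way. The mean *C4b* log2 value was 3.47 and 3.42 in the hippocampus libraries of mice 3 and 6 and 3.51 and 3.36 in the cortex libraries. The ranges overlap, and the difference of 0.01 ± 0.074 (SE) did not pass the test introduced below (adjusted p = 0.984). The mean *Serpina3n* log2 value was 1.99 and 2.07 in hippocampus and 1.70 and 1.83 in cortex. Both hippocampus libraries were thus above both cortex libraries, by 0.29 in mouse 3 and 0.24 in mouse 6 (0.27 ± 0.064, SE, limma adjusted p = 0.00396). The call was not made with cells thinned to 5000 UMIs (difference 0.24, limma adjusted p = 0.167) or by edgeR (0.26, adjusted p = 0.0711). At 5000 UMIs a *Serpina3n* UMI was found in 74.7% (71.7% to 77.6%) and 76.8% (72.6% to 80.6%) of hippocampal Oligo1 cells and in 67.3% (59.1% to 74.8%) and 70.4% (60.3% to 79.2%) of cortical ones, a mean difference of 6.88 ± 0.717 points (SD, n = 2 mice, exact permutation p = 0.5). Before thinning, the shares were 85.6% and 89.5% against 79.6% and 85.7%. Intervals cover counting error only. *C4b* shares long stretches with its paralog *C4a*, and reads of the pair may be split or dropped in counting.

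**Figure D1:**
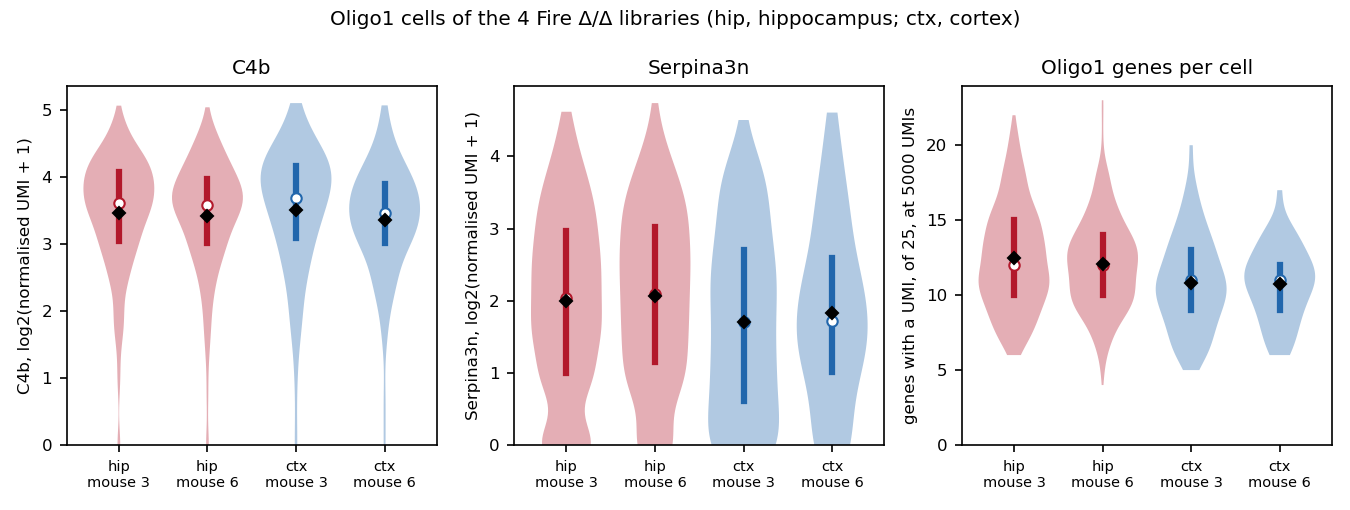
Single Oligo1 cells of *Fire* Δ/Δ mice by library: the violins show the *C4b* and *Serpina3n* values (log2 of the normalised UMI count plus 1) and, at 5000 UMIs a cell, how many of 25 genes named by the study for Oligo1 were detected. The bar spans the quartiles, the white circle is the median and the black diamond the mean; *C4b* violins sit at the same height in all libraries, whereas the mean number of detected genes is 12.5 and 12.1 in hippocampus and 10.8 and 10.8 in cortex.

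The cells also differed in how many of the 25 genes that the study names for Oligo1 they showed. At 5000 UMIs a cell, a hippocampal Oligo1 cell had UMIs of 12.5 of these genes on average in mouse 3 and 12.1 in mouse 6, and a cortical one of 10.8 in each mouse. Without *C4b* and *Serpina3n*, the means over the remaining 23 genes were 10.8 and 10.3 in hippocampus and 9.20 and 9.07 in cortex. The spread between cells was wide, with an SD of 3.47 genes in the hippocampus of mouse 3, so most cells of the tissues lay in a common range. Oligo2 to Oligo4 cells had means of 5.26 to 6.17, but the clusters were made from these genes among others, so that contrast is no test. The study chose the 25 genes on these cells, most of them hippocampal, so they are not independent evidence of the tissue difference.

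To compare the tissues gene by gene, the log2 values were averaged over the Oligo1 cells of each library, and the 9371 genes detected in 5% of the cells or more were tested with limma, with mouse as a block. A difference below is the mean over both mice of the hippocampus value minus the cortex value, on the log2 scale, and an adjusted p is limma's with Benjamini-Hochberg adjustment over all genes tested, unless another tool is named. At a threshold of 0.05, 79 genes were higher in hippocampus, which is 0.843% of those tested, and 105 were lower, which is 1.12%. Both mice moved the same way for 179 of these 184 genes. With 2 mice the fit had 1 residual degree of freedom and an infinite prior, so the standard error of a gene was that of genes of its level, not its own, and the values of both mice are therefore given for most of the genes described. The calls depended on this: without the trend of the prior on level, or without the mouse block, 0 genes passed, with 1217 and 285 at an unadjusted p under 0.05. The compared class was not uniform, since in a finer clustering by the authors a single cluster held 63.7% and 61.2% of hippocampal Oligo1 cells but 40.8% of cortical ones in each mouse, and the part of this make-up in the gene differences was not tested. Over all genes, both hippocampus libraries lay above both cortex libraries for 10.2% of genes and below them for 21.4%.

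The split into higher and lower genes moved with the scale. It was 44 higher (0.577%) and 11 lower (0.144%) with cells thinned to 5000 UMIs, 76 (0.811%) and 44 (0.47%) with edgeR on UMI sums per library, 176 and 86 on the log2 of the mean value plus 0.1, 152 and 68 on that of the mean plus 1, and 109 and 74 after centring each library on its median gene. For sparse genes the mean of log2 values depends on the depth of the cells, and the cortex cells were the deeper ones. Calls shared in the same direction by the designed fit, by thinned cells and by edgeR numbered 28 higher (0.299%) and 9 lower (0.096%). Across the 9371 genes, the differences of mouse 3 and mouse 6 had a correlation of 0.35. Those of Oligo1 and of *Fire* +/+ oligodendrocytes, from other mice in the same batches, had one of 0.36 over 9023 genes. Genes are not independent replicates.

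The genes named for Oligo1 by the study were higher in hippocampus in most cases. Of the 25, 14 passed the test as higher and 0 as lower, with a median difference of 0.14 against -0.01 over all genes tested. With thinned cells 6 passed and with edgeR 11. *Il33*, which encodes a nuclear cytokine released by damaged cells, had mean log2 values of 3.14 and 2.61 in the hippocampus and 2.89 and 2.30 in the cortex of mice 3 and 6. The cells of mouse 3 were higher in both tissues, so the libraries overlap, but the difference was 0.25 within mouse 3 and 0.31 within mouse 6 (0.28 ± 0.072, SE, adjusted p = 0.0128). *Anxa2*, a protein that binds phospholipids in the presence of calcium, was higher by 0.32 in mouse 3 and by 0.10 in mouse 6 (0.21 ± 0.044, SE, adjusted p = 0.000692). *S100a6*, a small calcium-binding protein, was higher by 0.25 and 0.15, and *Rhoj*, a small GTPase that acts on the actin cytoskeleton, by 0.22 and 0.14. *Slc9a3r2*, a scaffold protein below the membrane, was higher by 0.28 and 0.19, and *Snx10*, a sorting nexin of endosomes, by 0.19 and 0.14. *Masp1*, a protease that starts the lectin route of complement, was higher by 0.20 and 0.17. *Sparc*, a secreted matrix protein, was higher by 0.12 and 0.25, and *Flnc*, which crosslinks actin, by 0.15 and 0.13. *Fos*, an AP-1 subunit that is induced within minutes of a stimulus, had library means of 0.53 and 0.27 in hippocampus against 0.28 and 0.17 in cortex (0.18 ± 0.036, SE, adjusted p = 0.000345), with overlapping libraries. *Anxa2*, *Rhoj*, *Fos*, *Snx10* and *Slc9a3r2* were also called with thinned cells and by edgeR. The nuclear RNA *Neat1* (-0.14, adjusted p = 0.399) and *Trf*, which encodes the iron carrier transferrin (-0.11, adjusted p = 0.254), were 2 members with values below 0, and neither passed. *Cd63*, a tetraspanin of late endosomes, had differences of 0.30 and 0.04 and did not pass (adjusted p = 0.237).

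**Figure D2:**
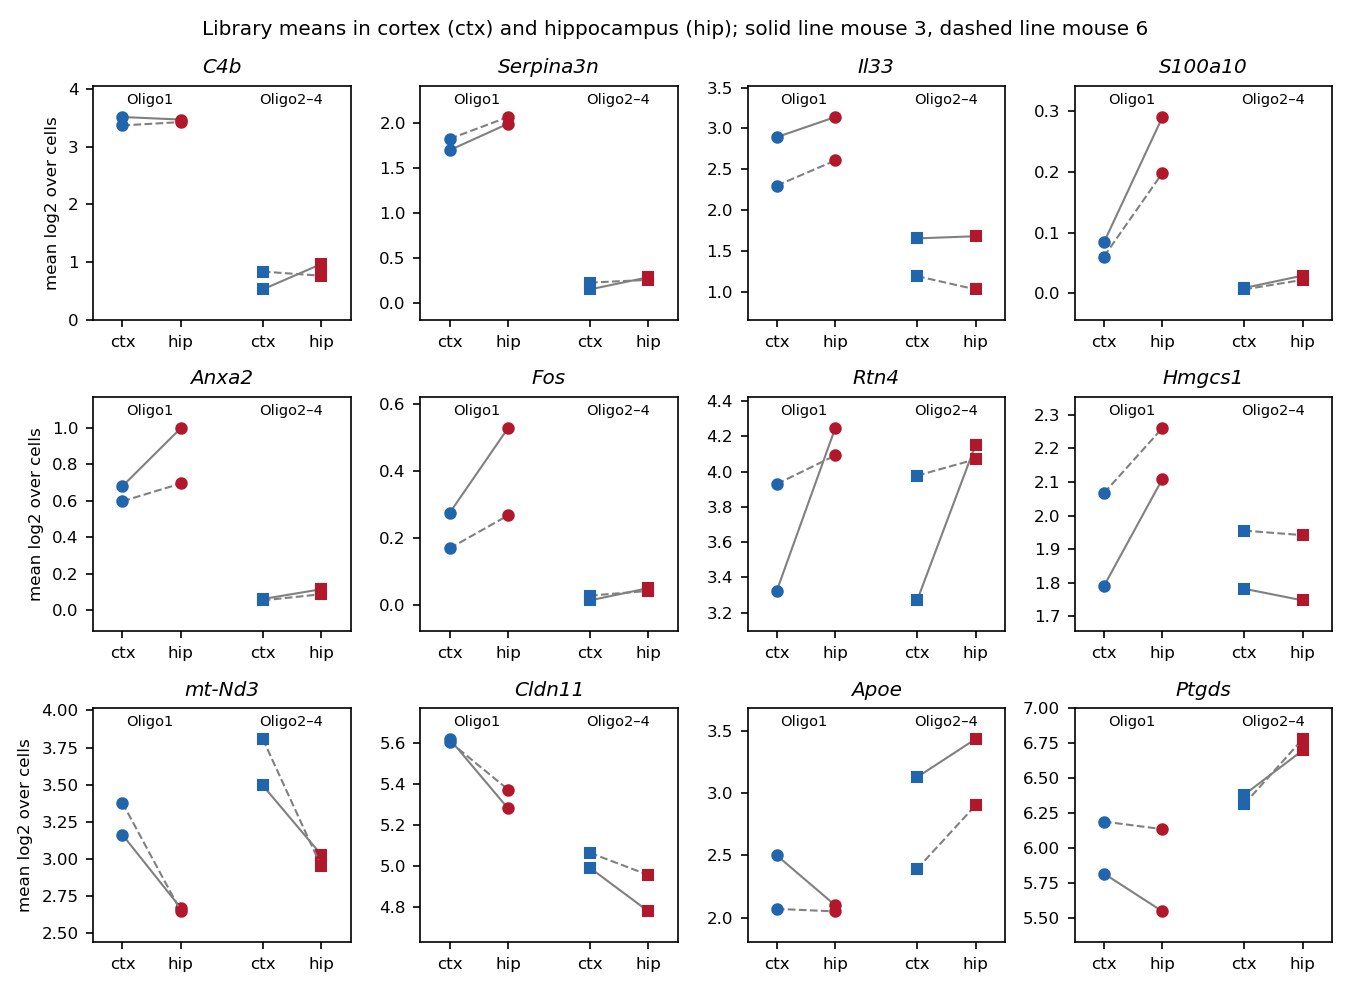
Mean log2 value per library of 12 genes in Oligo1 cells (circles) and Oligo2 to Oligo4 cells (squares) of *Fire* Δ/Δ mice, cortex in blue and hippocampus in red, with a line joining the libraries of a mouse (solid for mouse 3, dashed for mouse 6). *S100a10* rises from 0.08 and 0.06 in cortex to 0.29 and 0.20 in hippocampus in Oligo1, and *Ptgds* rises in Oligo2 to Oligo4 but not in Oligo1.

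*S100a10*, the partner of *Anxa2* in a membrane-bound complex, was not among those 25 genes and was called higher in hippocampus by limma, with thinned cells, by edgeR, by DESeq2 and in a fit over 8 libraries. The gene lies at chr3:93555080-93564643 on the plus strand. A UMI was found in 23.5% and 16.7% of hippocampal Oligo1 cells and in 9.52% and 7.14% of cortical ones, although the latter were deeper. Per 10000 UMIs the counts were 0.556 and 0.387 in hippocampus and 0.132 and 0.0824 in cortex, so that both hippocampus libraries lay above both cortex libraries. The difference of mean log2 values was 0.17 ± 0.025 (SE, adjusted p = 3.39e-08), and edgeR gave a log2 fold change of 2.08 (adjusted p = 2.33e-06). In Oligo2 to Oligo4 cells the library means were 0.03 and 0.02 in hippocampus and 0.01 and 0.01 in cortex. Of the 6 tested annexins and S100 proteins outside the study's genes, *S100a10* was the 1 that passed, and the median of the list was 0.02.

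The 15 genes with the highest differences among those that passed with the same sign in both mice were *Rtn4*, *Map1b*, *Smarca5*, *Ptms*, *Zfp91*, *Trappc10*, *Smap1*, *Il33*, *Arap2*, *Serpina3n*, *Hmgcs1*, *Tnks2*, *Pura*, *Psip1* and *Arhgap15*. They fell into those carried by both mice and those carried mainly by mouse 3. *Rtn4*, which encodes the neurite growth inhibitor Nogo, had library means of 4.25 and 4.09 in hippocampus but 3.32 and 3.93 in cortex, so that the difference of 0.54 ± 0.073 (SE, adjusted p = 4.78e-10) was 0.92 in mouse 3 and 0.16 in mouse 6. For 7 of the 15 genes (*Rtn4*, *Smarca5*, *Ptms*, *Zfp91*, *Smap1*, *Tnks2* and *Pura*) the difference of mouse 3 was at least 2 times that of mouse 6, with medians of 0.42 and 0.16. In Oligo2 to Oligo4 cells of the same libraries their medians were 0.43 and 0.05, and in the *Fire* +/+ mice, whose hippocampus and cortex libraries shared those batches, -0.02 and 0.03. The cortex library of mouse 3 was thus low for these genes in Oligo1 and in the other cells. For 30 of all 79 genes called higher, the difference of mouse 3 was at least 2 times that of mouse 6, with medians of 0.31 and 0.05. The cortex library of mouse 3 was not the lowest for all of these. *Anxa2*, 1 of them, had cortex means of 0.68 in mouse 3 and 0.60 in mouse 6. What part the cortex library of mouse 3 had in the calls was not tested.

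In the other 8 genes the mice differed less, with medians of 0.28 in mouse 3 and 0.25 in mouse 6. *Map1b*, a microtubule-binding protein of growing processes, had library means of 1.58 and 1.51 in hippocampus and 1.25 and 1.20 in cortex (0.32 ± 0.056, SE, adjusted p = 5.92e-06). *Arhgap15*, which turns off the GTPase Rac, had means of 0.64 and 0.52 against 0.42 and 0.27 (0.24 ± 0.039, SE, adjusted p = 9.25e-07). Both hippocampus libraries were above both cortex libraries for each of these genes. *Arap2*, a regulator of Arf GTPases, was higher by 0.26 and 0.28, *Psip1*, a chromatin-bound coactivator, by 0.26 and 0.22, and *Trappc10*, a subunit of a vesicle-tethering complex, by 0.36 and 0.22. In a fit over all 8 libraries, in which the *Fire* +/+ mice also set the spread, 26 of the 184 calls were made in the same direction, and *S100a10* (adjusted p = 0.00608), *Arhgap15* (0.00701), *Map1b* (0.0397) and *Serpina3n* (0.0263) were among them.

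Of the lower genes, transcripts encoded by the mitochondrial genome came first. Of its 13 protein-coding genes, 8 passed as lower and 0 as higher, with a median difference of -0.33. *mt-Nd3*, a subunit of complex I, had mean log2 values of 2.67 and 2.65 in hippocampus and 3.16 and 3.38 in cortex (-0.61 ± 0.073, SE, adjusted p = 6.13e-13). Both hippocampus libraries lay below both cortex libraries, as they did for 9 of the 13 genes. *mt-Cytb*, of complex III, had differences of -0.32 in mouse 3 and -0.47 in mouse 6. *mt-Co1*, of complex IV, had -0.16 and -0.58, and *mt-Atp6*, of the ATP synthase, -0.11 and -0.49. The other 4 that passed, *mt-Co2* (-0.19 and -0.52), *mt-Co3* (-0.23 and -0.43), *mt-Nd1* (-0.28 and -0.42) and *mt-Nd2* (-0.23 and -0.43), were also further below 0 in mouse 6, whose cortex library came from the batch called poorer in quality. In Oligo2 to Oligo4 of the same libraries 9 of the 13 were called lower, with a median of -0.29, and in *Fire* +/+ oligodendrocytes 0 were called, with a median of -0.22. The median share of UMIs from mitochondrial genes was 4.05% and 4.04% in hippocampal and 4.57% and 5.36% in cortical Oligo1 cells. The authors removed cells above 10% mitochondrial UMIs, and cell damage or handling in a batch moves this share as well. Neither was tested.

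**Figure D3:**
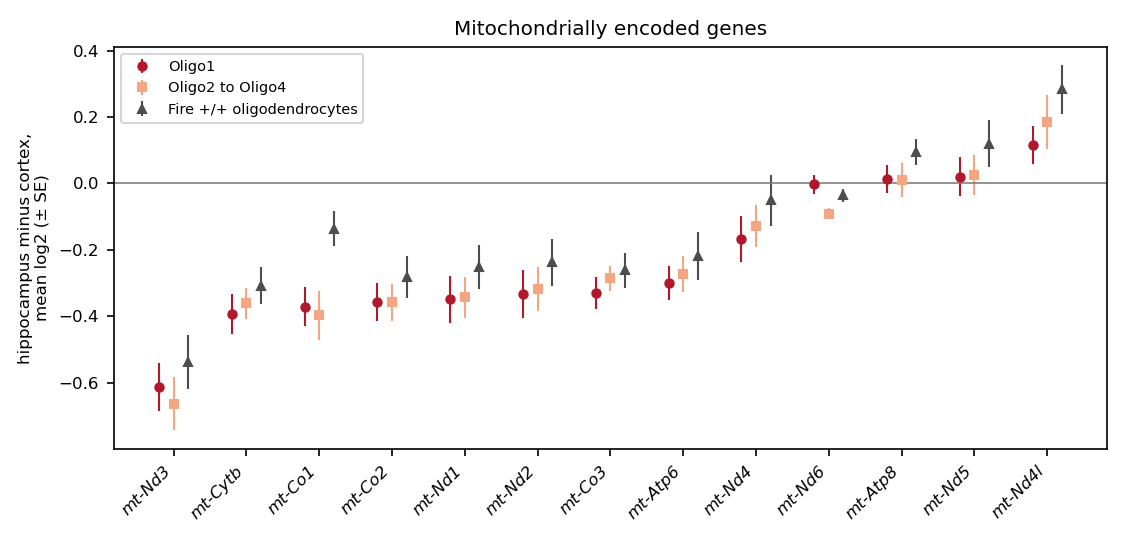
Hippocampus minus cortex difference of the mean log2 value (± SE) for the 13 protein-coding genes of the mitochondrial genome in Oligo1, in Oligo2 to Oligo4 and in *Fire* +/+ oligodendrocytes. Most points lie below 0 in all 3 cell classes, with Oligo1 and Oligo2 to Oligo4 side by side, down to -0.61 for *mt-Nd3* in Oligo1.

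Genes of the myelin sheath were also lower in hippocampal than in cortical Oligo1 cells. Of 20 tested, 5 passed as lower and 0 as higher, and the median was -0.12. With edgeR 5 passed as well, and with thinned cells 0 did. *Cldn11*, the claudin that seals myelin lamellae, had mean log2 values of 5.28 and 5.37 in hippocampus and 5.62 and 5.60 in cortex (-0.28 ± 0.058, SE, adjusted p = 0.000343). *Mog*, a glycoprotein on the outer face of myelin, had values of 3.91 and 3.86 against 4.12 and 4.16 (-0.25 ± 0.072, SE, adjusted p = 0.0297). *Mbp*, which holds the membranes together on the cytosolic side, had values of 5.18 and 5.15 against 5.42 and 5.37 (-0.23 ± 0.060, SE, adjusted p = 0.0135). All 3 genes were lower in both hippocampus libraries than in either cortex library. *Cnp*, an enzyme of non-compact myelin, had differences of -0.19 and -0.26 and passed, as did *Aspa*, which splits N-acetylaspartate to yield acetate, with -0.32 and -0.25. In Oligo2 to Oligo4 1 myelin gene was called lower and 1 higher, with a median of -0.04.

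**Figure D4:**
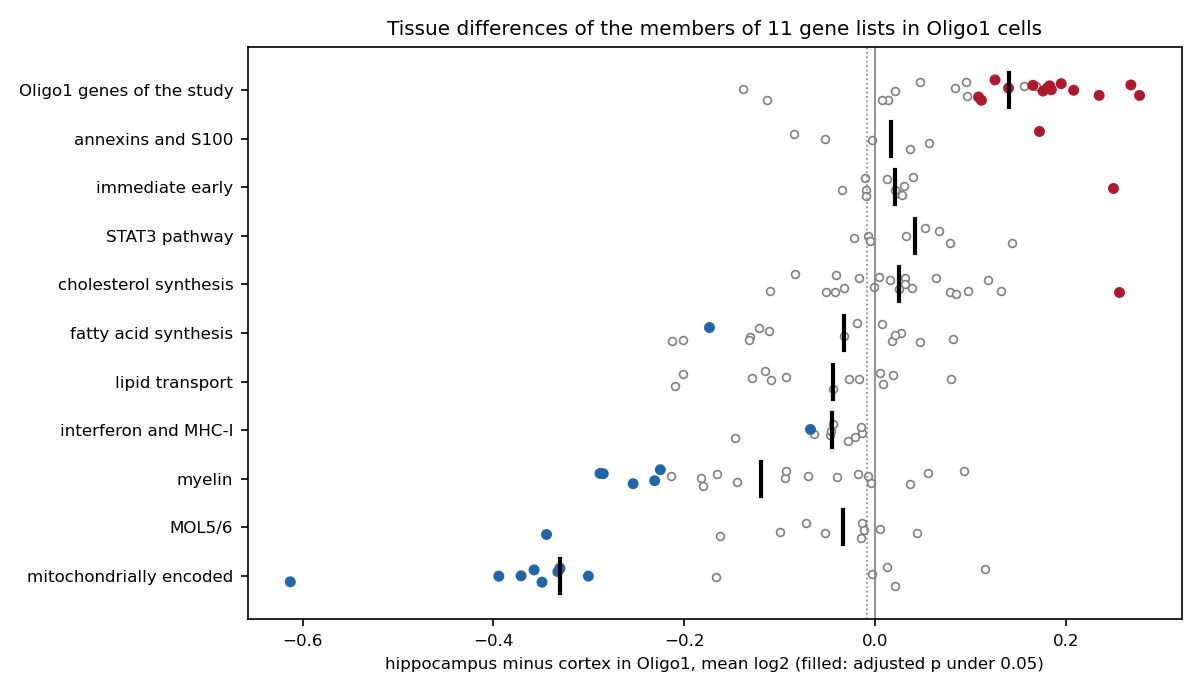
Hippocampus minus cortex differences in Oligo1 (log2) of the tested members of 11 gene lists, 1 point a gene, filled where the adjusted p was under 0.05, with a black bar at the median of a list and a dotted line at the median of all genes. The study's Oligo1 genes lie mostly above the line (14 of 25 filled) and the mitochondrial and myelin genes mostly below it (8 of 13 and 5 of 20 filled). All interferon and MHC-I genes lie below the line (1 of 10 filled), and the other lists scatter about it.

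Other lower genes were not tied to a single list. *Glul*, which encodes glutamine synthetase, was lower by 0.70 in mouse 3 and by 0.11 in mouse 6 (-0.41 ± 0.070, SE, adjusted p = 5.03e-06), with the cortex library of mouse 3 at 2.96 and the other 3 libraries between 2.26 and 2.44. *Gstp1*, a glutathione transferase, had differences of -0.22 in mouse 3 and -0.47 in mouse 6, *Tubb4a*, a beta-tubulin of oligodendrocytes, of -0.38 and -0.31, and *Csrp1*, a LIM-domain protein, of -0.32 and -0.26, and all 3 passed. *AY036118*, the remaining gene among the 15 lowest beside the mitochondrial, myelin and these genes, fell by 0.34. It differed more between mice than between tissues, with library means of 0.85 and 1.09 in mouse 3 and 2.03 and 2.47 in mouse 6. Of 80 cytosolic ribosomal protein genes, a list added after the first results, 6 passed as lower and 0 as higher (median -0.06). With thinned cells 0 passed (median -0.01), and edgeR called 4 lower. In Oligo2 to Oligo4 8 were called lower, also with a median of -0.06.

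Lipid genes moved little. Of 21 genes of cholesterol synthesis, 1 passed as higher and 0 as lower, with a median of 0.02. The gene was *Hmgcs1*, the synthase that makes HMG-CoA ahead of the rate-limiting reductase, whose library means were 2.11 and 2.26 in hippocampus and 1.79 and 2.07 in cortex (0.26 ± 0.066, SE, adjusted p = 0.011), with 0.32 in mouse 3 and 0.19 in mouse 6. It kept its call with thinned cells (adjusted p = 0.000147) and with edgeR (adjusted p = 0.01), but not in the fit over 8 libraries (limma adjusted p = 0.163). In *Fire* +/+ cells *Hmgcs1* differed by -0.12 in mouse 1 and by 0.28 in mouse 4. *Cyp51*, the demethylase of lanosterol, had differences of 0.18 and 0.09 (adjusted p = 0.175), and *Dhcr7*, which catalyses the last step to cholesterol, of -0.06 and -0.16 (adjusted p = 0.0986). Of 15 genes of fatty acid synthesis 1 passed as lower, *Scd1*, a desaturase (-0.27 and -0.08, adjusted p = 0.017), and its paralog *Scd2* had a value of -0.20 (adjusted p = 0.0939). The 13 genes of lipid uptake, transport and efflux gave 0 limma calls and a median of -0.04, whereas edgeR called *Apoe* lower (-0.30, adjusted p = 0.0473). The 8 genes of iron handling gave 0 limma calls and a median of -0.01.

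Lists tied to reactive states gave few calls. For interferon response and MHC class I genes, all 10 tested had values below 0, as did 5762 of all 9371 genes, whose median was -0.01. Of the 10, 1 passed. This was *H2-K1*, which presents peptides to T cells, with a UMI in 1.63% and 5.36% of hippocampal and in 8.84% and 8.16% of cortical Oligo1 cells (-0.07 ± 0.016, SE, adjusted p = 0.00236). The cortex libraries, which were deeper, brought this gene over the 5% filter, so its call is weak support. With thinned cells 0 of 7 tested genes of the list passed, with a median of -0.02. By edgeR 2 of the 10 were called lower. For 7 of the 10 both hippocampus libraries lay below both cortex libraries, against 21.4% of all genes tested. *H2-K1* shares reads with other class I genes. The 8 genes of the STAT3 list gave 0 calls and a median of 0.04, with *Stat3* itself at 0.14 in mouse 3 and 0.15 in mouse 6 (adjusted p = 0.083). Complement genes outside *C4b* (3 tested) and serpins outside *Serpina3n* (4 tested) gave 0 calls, with medians of 0.00 and 0.01. Of 11 immediate early genes outside *Fos*, 1 passed, *Jund*, and its mice went opposite ways, by 0.76 in mouse 3 and -0.26 in mouse 6. Heat shock genes (11), glucocorticoid targets (12), the TGF-beta pathway (13) and axon-glia contact genes (17) gave 0 limma calls each, with medians of 0.00, 0.01, 0.00 and -0.03. Genes that set apart mature oligodendrocyte subtypes in a published scheme gave 1 call of 10 for subtypes 5 and 6, *Gstp1*, and 0 of 6 for subtypes 1 and 2, with medians of -0.03 and 0.01. Genes of newly formed oligodendrocytes (11 tested) and regional patterning factors (3 tested) gave 0 calls, with medians of -0.01 and -0.01.

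RNA of other cell types was measured beside these values. Astrocyte (8 tested), microglia and macrophage (1), progenitor (1), neuronal (3 general, 3 hippocampal, 1 striatal or thalamic), endothelial (1) and erythrocyte (3) markers gave 0 limma calls. Of 2 ependymal and choroid plexus markers 1 passed, the thyroid hormone carrier *Ttr*, which had 2.08 UMIs per 10000 in the hippocampus library of mouse 3 and 0.0159 to 0.0300 in the other 3. Erythrocyte genes summed to 3.49 and 2.80 UMIs per 10000 in hippocampal and to 0.464 and 0.772 in cortical Oligo1 cells, with all 5 members higher in both hippocampus libraries, and edgeR called the 3 tested. Yet the share of cells with any such UMI was 41.2% and 39.1% in hippocampus and 42.2% and 64.3% in cortex. Astrocyte markers summed to 1.57 and 2.40 in hippocampus and 1.69 and 1.91 in cortex, and microglial ones to 0.218 and 0.159 against 0.244 and 0.210. Progenitor markers summed to 0.517 and 0.296 against 0.288 and 0.142, with 5 of 6 members higher in both hippocampus libraries. General neuronal markers summed to 1.39 and 1.72 against 1.28 and 0.554. The list for hippocampal neurons summed to 7.41 and 8.43 against 6.86 and 7.48, with 5 of 7 members higher in both hippocampus libraries. Most of that sum was *Zbtb20* (4.54 and 5.56 against 4.55 and 4.97) and *Prox1* (2.76 and 2.77 against 2.21 and 2.46). These 2 genes had UMIs in 94.9% to 98.6% and in 86.6% to 91.8% of Oligo1 cells of a library, so the sum is no measure of neuronal RNA. The counts of members given here include some near the floor. *Alas2* had 1 UMI and *Neurod6* 3 UMIs in each hippocampus library, and both had 0 in cortex, where fewer cells were summed. On mean log2 values, another scale, both hippocampus libraries lay above both cortex libraries for 10.2% of all genes tested. The part of RNA from other cells in the calls above was not tested.

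Whether the tissue difference was larger or smaller in Oligo1 than in the other *Fire* Δ/Δ oligodendrocytes was tested on the mean of Oligo1 minus that of Oligo2 to Oligo4 in each library, which removes what is common to a library. Of 9321 genes, 28 had a higher tissue difference in Oligo1 (0.3%) and 15 a lower one (0.161%). The Oligo2 to Oligo4 cells on their own gave 144 genes above 0 (1.55%) and 425 below 0 (4.58%) of 9276. Of the 171 Oligo1 calls with a value there, 95 were called in the same direction in Oligo2 to Oligo4, 34 higher and 61 lower. The calls come from the same libraries.

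The 5 genes with the lowest values of this contrast were *Apoe*, *Ptgds*, *Opalin*, *Prickle1* and *Malat1*. All but *Opalin* passed as higher in hippocampus in Oligo2 to Oligo4, and with limma none of the 5 passed in Oligo1, where edgeR called *Apoe* lower, as given above. *Ptgds*, which encodes prostaglandin D2 synthase, had means of 6.70 and 6.78 in hippocampus and 6.38 and 6.31 in cortex in Oligo2 to Oligo4. In Oligo1 the means were 5.55 and 6.14 in hippocampus and 5.82 and 6.19 in cortex, so the contrast was -0.59 in mouse 3 and -0.52 in mouse 6. *Apoe*, which carries cholesterol between cells, had means of 3.43 and 2.90 against 3.13 and 2.39 in Oligo2 to Oligo4 and of 2.10 and 2.05 against 2.50 and 2.07 in Oligo1, a contrast of -0.71 and -0.53. *Malat1*, a nuclear RNA, gave -0.20 and -0.18. *Opalin*, a membrane protein of central myelin, gave -0.10 and -0.37, and *Prickle1*, of planar cell polarity, -0.15 and -0.23. *Apoe* is also abundant in astrocytes and microglia. *Gfap*, an astrocyte marker, passed this contrast in the same direction (-0.11 and -0.07, limma adjusted p = 0.0204), and the part of astrocyte RNA in the *Apoe* value was not tested.

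**Figure D5:**
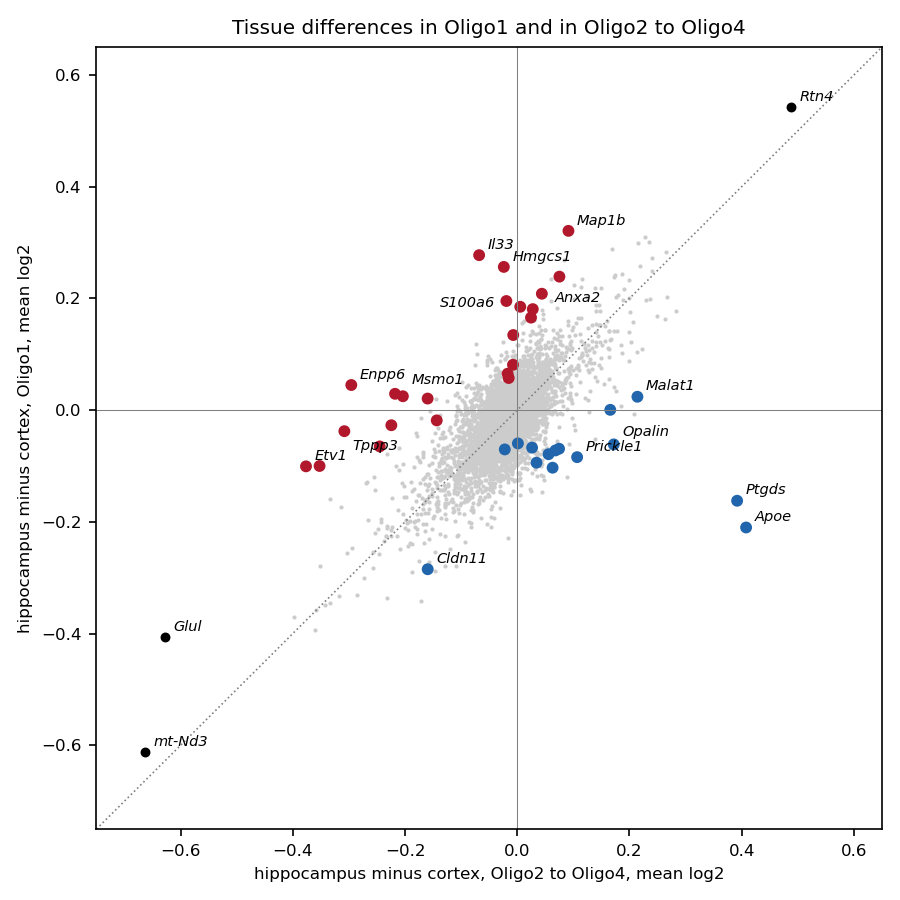
Hippocampus minus cortex difference of each tested gene in Oligo1 (vertical axis) against that in Oligo2 to Oligo4 of the same libraries (horizontal axis), both log2, for genes tested in both classes, with those whose difference of differences passed in red (above 0) or blue (below 0). *Rtn4*, *Glul* and *mt-Nd3*, in black, have large differences of the same sign in both classes, and *Apoe* and *Ptgds* lie to the right of 0 and below it.

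The 5 highest were *Il33*, *Enpp6*, *Hmgcs1*, *Etv1* and *Tppp3*. For *Il33* the contrast was 0.22 in mouse 3 and 0.47 in mouse 6 (limma adjusted p = 0.000438), and in Oligo2 to Oligo4 the gene differed by 0.03 in mouse 3 and by -0.16 in mouse 6. *Hmgcs1* gave 0.35 and 0.21, with a difference of -0.02 in Oligo2 to Oligo4. Its contrast passed against Oligo3 alone (limma adjusted p = 0.00229). It did not pass against the 3 clusters weighted equally (0.324) or with thinned cells (0.185). *Enpp6*, a choline phosphodiesterase of newly formed oligodendrocytes, *Etv1*, an ETS factor, and *Tppp3*, a tubulin-binding protein, were placed here by lower hippocampal levels in Oligo2 to Oligo4 (-0.30, -0.38 and -0.31), while their Oligo1 differences of 0.04, -0.10 and -0.04 did not pass. Of the study's 25 genes, 10 had a higher tissue difference in Oligo1 and 0 a lower one. Among the 10 were *Fos* (0.15), *Flnc* (0.13), *Anxa2* (0.16), *S100a6* (0.21), *Rhoj* (0.15) and *Snx10* (0.14). With thinned cells none of the genes just named passed this contrast (limma adjusted p from 0.278 to 0.604). *S100a10* gave 0.19 in mouse 3 and 0.12 in mouse 6, and *Arhgap15* 0.11 and 0.21. These are differences of mean log2 values, which for genes near 0 in Oligo2 to Oligo4 grow with the level of a gene in Oligo1. As a hippocampus to cortex ratio of UMIs per 10000, *S100a10* was at 4.22 in mouse 3 and 4.70 in mouse 6 in Oligo1 and at 3.30 and 3.68 in Oligo2 to Oligo4. In mouse 3 the ratio was lower in Oligo1 than in Oligo2 to Oligo4 for *Fos* (2.25 against 4.87), *Snx10* (1.73 against 2.24) and *Anxa2* (1.68 against 2.14). The same was seen for *Arhgap15* (1.71 against 2.40) and *Flnc* (1.77 against 1.88). In mouse 6 the ratio was lower in Oligo1 for *Anxa2* too (1.28 against 1.82). It was higher there for *Fos*, *Snx10*, *Flnc* (2.12 against 1.20) and *Arhgap15* (2.23 against 1.69). In *Fire* +/+ cells the *Arhgap15* ratio was 1.93 in mouse 1 and 2.19 in mouse 4. For *S100a6* it was higher in Oligo1 in both mice (1.93 against 1.14 and 1.37 against 0.912). With the log2 of the mean plus 0.1, 3 of the 25 genes had a higher tissue difference in Oligo1 (*Fos*, *Il33* and *S100a6*) and 1 a lower one (*C4b*), and with the mean plus 1, 5 had a higher one and 0 a lower one. *S100a10* passed under both. *Serpina3n* gave 0.19 and did not pass (limma adjusted p = 0.0864), nor did *C4b* (adjusted p = 0.482). For the mitochondrial genes 0 passed, and of the myelin genes 3 had a lower tissue difference in Oligo1. Among the 3 were *Cldn11* (-0.13, limma adjusted p = 0.0493) and *Mal* (-0.13). Against Oligo3 alone *Cldn11* gave -0.03 and *Mal* 0.05, and neither passed (limma adjusted p = 0.977 and 0.61). Nor did these 2 genes pass against the 3 clusters weighted equally or with thinned cells. The result also depended on the comparison cells, in that 24 of the 43 calls were made against Oligo3 alone and 9 of the 43 against the 3 clusters weighted equally. Among those 9 were *Apoe*, *Ptgds*, *Malat1*, *S100a10*, *Fos*, *Flnc*, *Arhgap15* and *Cxcl14*, and with thinned cells 4 of the 43 were.

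Against *Fire* +/+ oligodendrocytes, whose cells come from other mice but the same batches, fewer genes stood apart. The wild-type cells on their own gave 1 gene that differed between tissues among 9193 tested (0.0109%), *Malat1*, higher in hippocampus by 0.14, with 438 genes at an unadjusted p under 0.05. The tissue difference of Oligo1 differed from theirs for 3 of 9304 genes (0.0322%). *S100a10* had a larger difference in Oligo1, by 0.20 in the pair of mice 3 and 1 and by 0.13 in the pair of mice 6 and 4 (0.17, adjusted p = 0.0124). Its level in wild-type cells was near 0, and the hippocampus to cortex ratio of its UMIs per 10000 there was 2.40 in mouse 1 and 1.42 in mouse 4, from 9 to 53 UMIs a library. *Malat1* had a smaller one, by -0.14 and -0.09. Genes next in size that did not pass were *Rtn4*, *Pura*, *Ube2m* and *Zfp91* above 0 and *Ptgds*, *Mog* and *Cldn11* below 0. The wild-type libraries held 6 Oligo1 cells, so all their oligodendrocytes were used, and genotype and cell class cannot be told apart in this contrast.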

How the data were processed

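Single-cell RNA-sequencing libraries of sorted cells came from hippocampus and cortex of 2 *Fire* Δ/Δ and 2 *Fire* +/+ mice, 8 libraries in all. Cell Ranger 5.0.0 and the mm10 reference are named in the submitters' processing notes. The authors kept cells annotated as mature oligodendrocytes, with at least 5000 UMIs and at most 10% mitochondrial UMIs, clustered them after batch correction, and deposited log2 values (UMI counts divided by scran size factors, plus 1, then log2) without batch correction, beside a table of per-cell UMI counts, size factors and clusters. UMI counts were taken back from the deposited log2 values and size factors. Cells were gated by scatter against doublets, and no doublet caller was run here.

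For genes detected in 5% of the cells or more, means over Oligo1 cells per library entered limma 3.58.1 (R 4.3.3, trend on level, mouse as block). Cells were not replicates. The mouse numbers in the labels pair the samples, since both libraries of a number come from 1 animal, and the deviations of a mouse's hippocampus and cortex had a correlation of 0.68 over 9371 genes. Alternatives used edgeR 4.0.16 and DESeq2 1.42.0 on UMI sums of 2047621 and 1334973 (cortex) and 8899932 and 5037187 (hippocampus), other scales, filters, priors and cells, and each mouse left out. Named genes were *C4b*, *Serpina3n* and *Csf1r*, the 15 highest and 15 lowest called differences with the same sign in both mice, the 5 highest and lowest of each difference of differences, and up to 4 members of each list with the largest differences. Other genes printed, among them further study genes, *Malat1* in *Fire* +/+ mice and genes set beside a called one, were picked after their values were seen. On simulated data for the Oligo1 tissue comparison (9371 genes), limma recovered 100% of genes changed by 1 or 2 on the log2 scale. Differences of the size reported here were not simulated. The members and lists were chosen with earlier results of these data known. Coordinates follow GENCODE M21, in which 18560 of 18833 symbols were found. Shares have Clopper-Pearson intervals. Values of 1 gene that the rule names are not reported here.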

Additional observations from a re-analysis of the deposited data

Results flagged for a closer look

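Results that rest on a test of a difference between cell classes in their tissue difference are given here as values. In 43 genes the hippocampus minus cortex difference of Oligo1 differed from that of Oligo2 to Oligo4 in limma. The contrast was 0.35 for *Il33*, 0.34 for *Enpp6*, 0.28 for *Hmgcs1*, 0.28 for *Etv1* and 0.27 for *Tppp3*, and it was -0.62 for *Apoe*, -0.55 for *Ptgds*, -0.23 for *Opalin*, -0.19 for *Prickle1* and -0.19 for *Malat1*, with both mice on the same side in each. In 3 genes the difference of Oligo1 differed from that of *Fire* +/+ oligodendrocytes, among them *S100a10* by 0.17 (0.165 before rounding) and *Malat1* by -0.12. No group held 4 or more libraries of one tissue and genotype, so single libraries could not be screened as outlying.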

How the results depend on the processing

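The 184 calls of the Oligo1 tissue comparison fell to 0 without the mouse block (the pairing of libraries), 0 without the trend, 55 with thinned cells, 120 with edgeR and TMM factors, 79 with edgeR on thinned cells, 4 with DESeq2, 27 with the spread of 8 libraries, 4 in Oligo1 cells without erythrocyte, microglial or neuronal UMIs (a smaller set of cells) and 37 shared by 3 fits, and rose to 409 without a filter and 290 in cells with UMIs of *C4b* and *Serpina3n*. With either mouse left out of the 8-library fit, where the lone mouse is assumed to vary like the others, the count ranged from 556 to 956. Of the 184 calls, 99 were made again without mouse 3 and 98 without mouse 6, and 5 (*Camk2n1*, *Lamp1*, *Jund*, *Tle5* and *Ttr*, of which *Camk2n1*, *Lamp1* and *Tle5* are named after their values were seen) had opposite signs in the mice. The 43 calls of Oligo1 against Oligo2 to Oligo4 fell to 1 without the block, 17 with the mean plus 1, 0 without a filter, 0 without the trend, 4 with thinned cells and 10 against clusters weighted equally. The 3 calls against *Fire* +/+ became 0 without the block, without a filter, without the trend or at 10% of cells, 6 and 52 with the mean plus 0.1 and 1, 33 with thinned cells and 64 after centring. In Oligo2 to Oligo4, 569 calls became 0 without the block, without the trend or with the mean plus 0.1, 34 with the mean plus 1, 275 without a filter, 175 with thinned cells and 150 after centring. In *Fire* +/+ cells 1 call became 0 without the block, filter or trend, 93 and 110 with the mean plus 0.1 and 1, 10 at 10% of cells, 53 with thinned cells and 28 after centring. The cause of these changes was not tested. The *Serpina3n* share difference moved from 4.88 to 6.88 points at 5000 UMIs, and that of *C4b* (-0.0612) ranged from -0.319 to 0.196 with 1 mouse left out.

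Signs turned for these genes. *C4b* gave -0.00843 and -0.00807 with the mean plus 0.1 and 1, -0.0303, -0.0306 and -0.0298 with edgeR (TMM, RLE) and DESeq2, and -0.0108 with edgeR on thinned cells. *Tppp3* gave 0.0160 and 0.0154 with the mean plus 0.1 and 1, 0.0168, 0.0164 and 0.0187 with edgeR (TMM, RLE) and DESeq2, and 0.0822 in cells without foreign UMIs, where *Trf* gave 0.00751, *Neat1* 0.15 and *Enpp6* -0.0125. *Malat1* gave -0.0229 and -0.0228 with the mean plus 0.1 and 1, -0.0326, -0.0328 and -0.0328 with edgeR (TMM, RLE) and DESeq2, and -0.0259 with edgeR on thinned cells. In cells with UMIs of both markers *Enpp6* gave -0.19 (limma adjusted p = 0.021) and *Ptgds* 0.14. With 1 mouse left out, values ranged from -0.0441 to 0.0588 for *C4b*, -0.26 to 0.76 for *Jund*, -0.12 to 0.21 for *Enpp6*, -0.16 to 0.0848 for *Tppp3*, -0.0118 to 0.11 for *Ttr*, -0.30 to 0.0256 for *Camk2n1*, -0.12 to 0.64 for *Lamp1* and -0.0301 to 0.44 for *Tle5*. Against Oligo2 to Oligo4, *Serpina3n* gave -0.12 with the mean plus 0.1. Against *Fire* +/+ it gave -0.00902, and *C4b* 0.0292 with thinned cells. Of 1394 values of named genes under alternatives, 858 kept direction and side of the threshold, 459 lost a call, 43 gained one and 34 turned.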
